A study of Mus musculus with 2 samples.

Results

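The 10 genes described here encode secreted proteins, enzymes and chemotactic signals that the gut lining makes when it is injured or meets microbes. They were Saa1, Saa2, Lcn2, Dmbt1, Duox2, Duoxa2, Nos2, Cxcl1, Cxcl5 and Il18, chosen by name, and each was found among the 32285 genes that both count tables list. They were measured in 2 single-cell RNA-seq libraries of mouse intestine, 1 labelled WT and 1 labelled MG53-TG, both from animals given 2.5% dextran sulfate sodium (DSS), a detergent-like salt that damages the mucosa, and taken on day 7. MG53, also named TRIM72, is a membrane repair protein of muscle, and the MG53-TG mice overexpress it in the whole body beside wild type littermates. Live cells carrying EpCAM, a surface protein of epithelium, were sorted from dissociated crypts. No untreated animals were among the samples, so that no level given here could be set against a gut without DSS, and neither strain nor age is given in the labels.

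Saa1 and Saa2 encode serum amyloid A proteins, which rise in blood in the acute phase response and are also made by ileal epithelium in contact with certain bacteria. Lcn2 encodes lipocalin 2, which takes iron carriers away from bacteria, and Dmbt1 encodes a large mucosal scavenger protein that binds microbes. Duox2 is an oxidase of the apical membrane that releases hydrogen peroxide into the lumen, and Duoxa2 is the partner protein it needs to leave the endoplasmic reticulum. Nos2, the inducible nitric oxide synthase, makes nitric oxide. Cxcl1 and Cxcl5 encode chemokines that attract neutrophils, and Il18 encodes a cytokine that epithelial cells hold as an inactive precursor until a caspase cuts it.

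Each group was 1 library, so there were no replicates and no test between genotypes was possible. The values are counts of unique molecular identifiers (UMIs), each standing for 1 captured RNA molecule, summed over cells. They are given as CPM, that is UMIs of a gene per 1000000 UMIs of all genes in the same cells. Log2 ratios set MG53-TG against WT, with 0 meaning equal levels. The 95% intervals beside them are exact and cover counting error only, not differences between animals, sorts or runs. A barcode was kept when it had 1354 UMIs and 200 genes or more and no more than 25% of its UMIs were mitochondrial, and after removal of probable doublets 6963 WT and 4941 MG53-TG cells were left, with median depths of 14035 and 17950 UMIs. Only 8 barcodes were shared between the kept cells of both libraries. The cells formed 26 clusters, found without the 10 genes and without Trim72, and 6120 WT and 4606 MG53-TG cells lay in epithelial clusters named from marker genes. The labels call all cells epithelial, yet 798 WT and 317 MG53-TG cells were T cell-like. Trim72, which encodes MG53, gave 63 UMIs in the WT epithelium and 4569 in that of MG53-TG, 0.594 and 50.8 CPM, so that the targeted gene followed the labels.

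The promoters of 5 genes are shown because the results turn on them: Saa1 and Lcn2 had the lowest ratios among the 7 genes with at least 30 UMIs, Saa2 is the near copy of Saa1, and Duox2 and Duoxa2 start back to back. Each run holds 250 bases before and 50 bases after a start site in the RefSeq table of build GRCm38.p6, on the strand of the gene and 5′ to 3′. Saa1 lies at chr7:46742931-46743230 on the minus strand, Saa2 at chr7:46751583-46751882 on the plus strand, Lcn2 at chr2:32387690-32387989 on the minus strand, Duox2 at chr2:122298178-122298477 on the minus strand and Duoxa2 at chr2:122298650-122298949 on the plus strand. Capitals mark matches, on either strand, to GGG and CC with any 5 bases between them, a core of NF-kappaB sites, and to TTGCNNAA, a C/EBP site.
Saa1: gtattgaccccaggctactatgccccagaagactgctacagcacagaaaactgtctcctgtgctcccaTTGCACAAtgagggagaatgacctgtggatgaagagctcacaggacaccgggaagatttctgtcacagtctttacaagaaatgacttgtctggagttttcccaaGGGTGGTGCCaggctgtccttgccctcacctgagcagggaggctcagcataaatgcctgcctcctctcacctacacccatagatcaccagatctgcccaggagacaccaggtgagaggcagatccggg
Saa2: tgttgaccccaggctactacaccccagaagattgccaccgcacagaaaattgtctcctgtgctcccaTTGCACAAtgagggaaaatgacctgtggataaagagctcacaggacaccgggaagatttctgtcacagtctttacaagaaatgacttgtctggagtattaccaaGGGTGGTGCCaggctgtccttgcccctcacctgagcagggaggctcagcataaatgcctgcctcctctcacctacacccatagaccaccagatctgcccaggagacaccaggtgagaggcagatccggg
Lcn2: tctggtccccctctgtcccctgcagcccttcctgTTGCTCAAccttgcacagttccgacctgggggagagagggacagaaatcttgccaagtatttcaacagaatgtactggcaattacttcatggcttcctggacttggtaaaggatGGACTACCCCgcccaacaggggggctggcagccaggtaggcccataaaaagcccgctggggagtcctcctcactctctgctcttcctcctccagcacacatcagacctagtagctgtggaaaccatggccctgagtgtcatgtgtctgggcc
Duox2: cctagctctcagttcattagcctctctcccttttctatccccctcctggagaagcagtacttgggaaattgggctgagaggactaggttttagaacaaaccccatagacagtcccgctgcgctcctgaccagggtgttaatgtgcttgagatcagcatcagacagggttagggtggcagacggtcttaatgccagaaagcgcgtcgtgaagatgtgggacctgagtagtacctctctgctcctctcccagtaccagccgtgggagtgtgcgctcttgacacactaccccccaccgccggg
Duoxa2: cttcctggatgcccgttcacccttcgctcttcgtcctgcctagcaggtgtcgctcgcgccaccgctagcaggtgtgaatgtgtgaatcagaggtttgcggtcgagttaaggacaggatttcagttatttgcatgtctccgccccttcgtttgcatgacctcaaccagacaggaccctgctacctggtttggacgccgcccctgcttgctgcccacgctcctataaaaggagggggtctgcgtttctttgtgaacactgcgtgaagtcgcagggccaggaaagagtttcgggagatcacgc

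The promoter windows of Saa1 and Saa2 were 96% identical over 299 aligned bases, and each held 1 match to the NF-kappaB core and 1 to the C/EBP letters. The Lcn2 window also held 1 match to each. The windows of Duox2 and Duoxa2 held neither, nor did that of Il18. The Cxcl1 window held 4 matches to the NF-kappaB core, which overlap each other in pairs. A STAT site, TTCNNNGAA, was in none of the 7 windows found for these genes. Among 32851 windows of the same length, 50.8% held the NF-kappaB core, 10.8% the C/EBP letters and 8.3% the STAT letters, so a match to the first is common. Matches describe letters in these windows only.

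By the GENCODE M21 annotation of GRCm38, Saa1 (ENSMUSG00000074115) and Saa2 (ENSMUSG00000057465) lie on chromosome 7, pointing away from each other with 8810 bases between their starts. Their longest coding transcripts were 94.4% identical over 606 aligned bases and 92.9% over the last 200, the end that this method reads, so the split of UMIs between them is uncertain. Duox2 (ENSMUSG00000068452) and Duoxa2 (ENSMUSG00000027225) lie on chromosome 2 on opposite strands with 451 bases between their starts. Duoxa2 overlaps Duoxa1, Dmbt1 (ENSMUSG00000047517, chromosome 7) overlaps Fgfr2, and Il18 (ENSMUSG00000039217, chromosome 9) overlaps Bco2 and Tex12, in each case on the opposite strand. Whether the authors counted by strand is not given in the sources used here. Lcn2 (ENSMUSG00000026822, chromosome 2), Nos2 (ENSMUSG00000020826, chromosome 11), Cxcl1 (ENSMUSG00000029380, chromosome 5) and Cxcl5 (ENSMUSG00000029371, chromosome 5) overlap no annotated gene.

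Summed over epithelial cells, the injury genes did not move as a block. Of the 10 genes, 7 had at least 30 UMIs in both libraries together, and 2 of these, Saa1 and Lcn2, were at least 2-fold lower in MG53-TG, a fold that 1.04% of 14657 genes reached in that direction. None of the 7 was at least 2-fold higher, against 1.43% of all genes. Saa1 was at 51.6 CPM in WT and 13.6 in MG53-TG (log2 ratio -1.93, interval -2.02 to -1.84). Lcn2 was at 24.5 and 6.85 CPM (-1.84, interval -1.97 to -1.71). Dmbt1 was at 1786 and 1009 CPM (-0.82, interval -0.83 to -0.81). Duox2, at 32.8 and 34.5 CPM, and Duoxa2, at 21.1 and 21.6 CPM, had ratios of 0.07 (0.00 to 0.14) and 0.04 (-0.05 to 0.13), and rescaling the libraries by the median ratio of 14655 genes, 0.09 when no pseudocount is added, turned both to just below 0, at -0.02 and -0.05. Il18 was at 81.3 and 97.1 CPM (0.26, interval 0.21 to 0.30), and Nos2 at 7.71 and 11.5 CPM (0.58, interval 0.44 to 0.71). With a pseudocount of 1 CPM, the median ratio of the 7 genes was 0.04 and that of all genes tested 0.07.

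**Figure D1:**
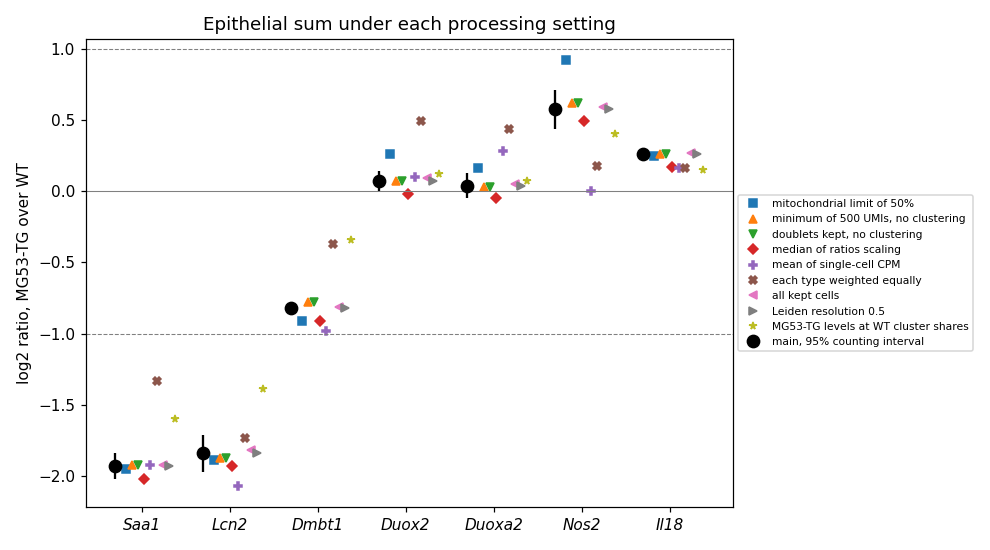
Log2 ratio of MG53-TG over WT for the 7 genes with at least 30 UMIs, in the epithelial sum; black circles are the main values with 95% counting intervals, coloured symbols the values under other processing, and dashed lines mark a 2-fold difference. Saa1 and Lcn2 lie below -1 at every setting, while Nos2 runs from 0.00 to 0.92.

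These sums joined cells with very unlike levels and in unlike numbers. Cells of the ileal enterocyte-like class, named from bile acid genes such as Fabp6, made up 9.9% of WT and 5.82% of MG53-TG epithelial cells. Stem-like cells made up 18% and 11.5%, and goblet-like cells 23.9% and 37.5%. With MG53-TG levels weighted by the share of WT UMIs in each cluster, a calculation added after the data were seen, the ratios were -1.60 for Saa1, -1.39 for Lcn2, -0.34 for Dmbt1, 0.40 for Nos2 and 0.15 for Il18. At these shares Saa1 and Lcn2 were still past 2-fold, and Dmbt1 lay closer to 0 than in the plain sum.

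**Figure D2:**
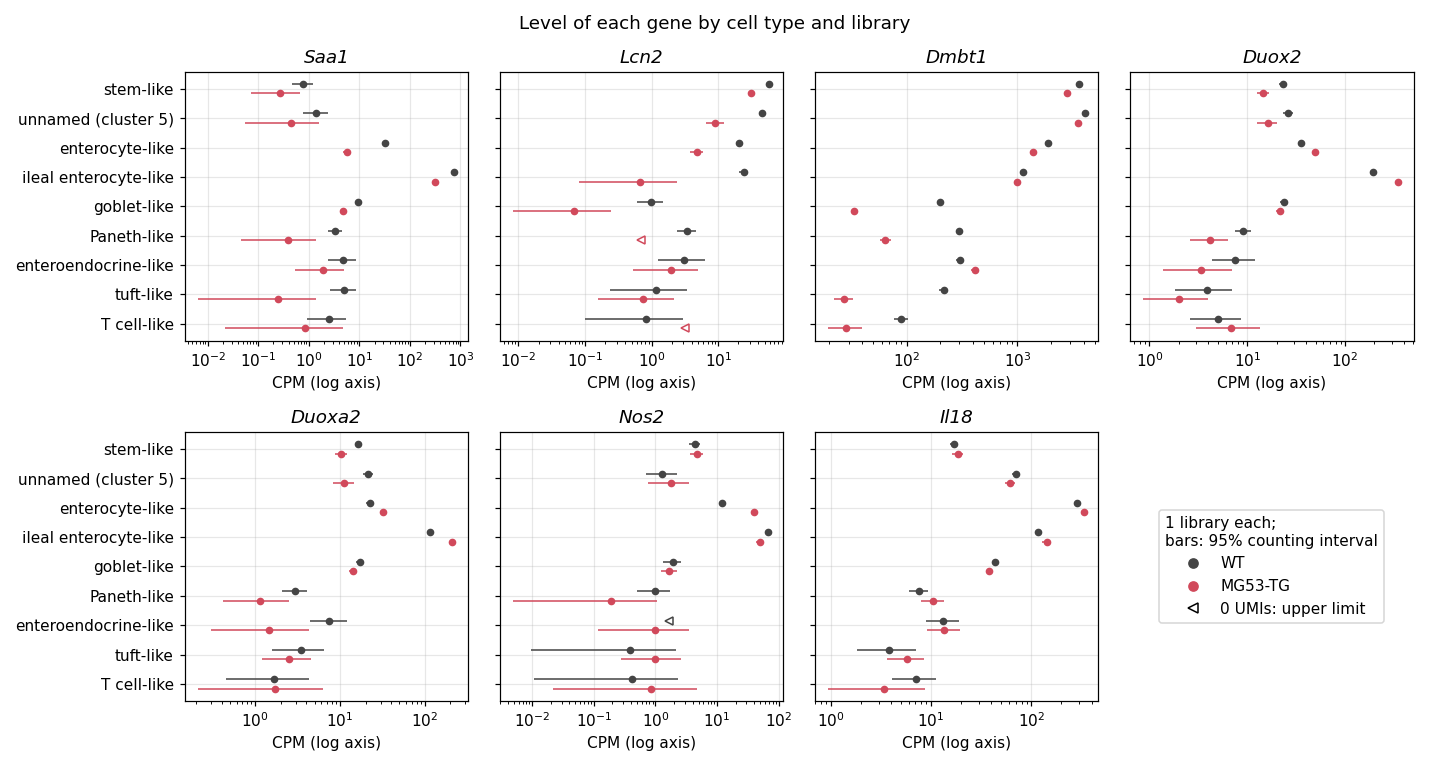
CPM on a log axis for the 7 genes in each cell type, WT in grey and MG53-TG in red, 1 library each, with 95% counting intervals; open triangles are upper limits for 0 UMIs. Saa1, Duox2, Duoxa2 and Nos2 peak in ileal enterocyte-like cells in both libraries, Lcn2 in stem-like cells, Dmbt1 in unnamed cluster 5 and Il18 in enterocyte-like cells.

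Saa1 was found mainly in ileal enterocytes. Ileal enterocyte-like cells held 82.7% of its WT and 77.8% of its MG53-TG epithelial UMIs, at 763 and 313 CPM (log2 ratio -1.29, interval -1.39 to -1.18). Within that class it was concentrated in cluster 10, led by Clca4a, Ly6m and Pmp22, where 336 WT cells held 3516 UMIs and 169 MG53-TG cells 875, or 2448 and 979 CPM (-1.32, interval -1.43 to -1.21), where 5.93% of 5820 genes were at least 2-fold lower. Cluster 10 was shallow, with median depths of 3415 and 4503 UMIs per cell. After every cell was thinned to 1354 UMIs, so that depth did not enter, 54.5% (49 to 59.9) of WT and 35.5% (28.3 to 43.2) of MG53-TG cells of cluster 10 had a UMI of Saa1, and unthinned 63.1% and 47.3%. The other ileal cluster, 13, was at 225 and 34.2 CPM, and cluster 7, enterocyte-like cells led by Enpp7 and Plb1, at 157 and 25.7 CPM. The level of Saa1 was below that of WT beyond counting error in 6 of the 8 clusters with at least 30 UMIs and above it in 0. In 3 of the 6, clusters 0, 6 and 14, the thinned WT share overlapped that of T cell-like cells. Their WT levels were 4.41 (3.07 to 6.13), 21.4 (18.1 to 25.1) and 3.29 (2.35 to 4.48) CPM, beside 2.49 (0.915 to 5.42) in T cell-like cells. Of these, cluster 6 alone was above T cell-like cells in level beyond counting error, though not in share. A part of background cannot be told apart in these clusters. In stem-like cells Saa1 was at 0.779 and 0.265 CPM. A UMI was seen in 0.0907% (0.0023 to 0.504) of thinned WT cells, which overlaps the 0.376% (0.0776 to 1.09) of WT T cell-like cells. Background from free RNA cannot be told apart there.

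Few cells carried Saa1. In WT, 536 of 6120 epithelial cells had a UMI and 39 cells held 50% of all UMIs, the richest with 326. In MG53-TG, 204 of 4606 cells had a UMI and 18 cells held 50%, the richest with 61. The counting interval of the ratio does not cover the chance of catching such cells. Over all thinned epithelial cells, a UMI of Saa1 was seen in 4.62% of those of WT and 1.87% of those of MG53-TG, and unthinned in 8.76% and 4.43%, so the share differed in the same direction as the CPM. The level of ileal markers also differed: Fabp6 was at 4425 and 2495 CPM in cluster 10 (log2 ratio -0.83), and Slc10a2, the ileal bile acid transporter, at 1215 and 682 CPM (-0.83). Ada, which encodes adenosine deaminase, was higher there, at 1039 and 1921 CPM (0.89). Whether a different position along the gut or the villus of the cells caught contributed to the Saa1 difference was not tested.

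Of Saa2, 23 UMIs were counted in the WT epithelium and 5 in that of MG53-TG, below the minimum for a call, and 13 and 3 of them lay in ileal enterocyte-like cells. Its log2 ratio was -1.96 with an interval from -3.72 to -0.54. These counts stand beside the 5477 and 1219 UMIs of Saa1, with the uncertain assignment described above.

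**Figure D3:**
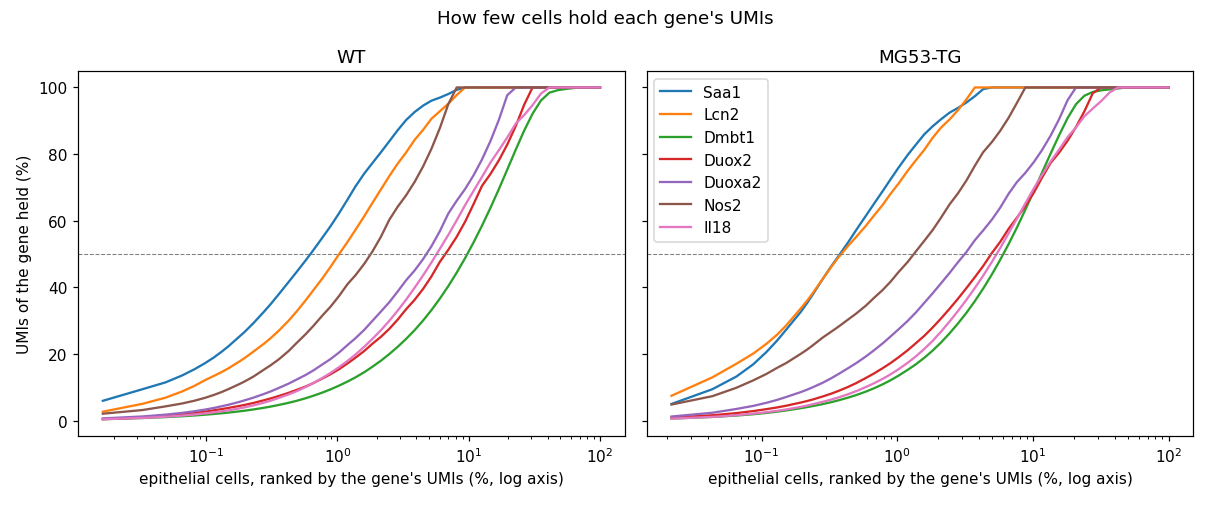
Share of each gene's UMIs (%) held by the epithelial cells richest in it, ranked from the richest on a log axis, in WT and MG53-TG; the dashed line marks 50%. Saa1 and Lcn2 rise first, with 50% of the UMIs in 0.637% and 1.05% of the cells in WT, and 0.391% for both genes in MG53-TG, and Dmbt1 last, with 50% in 9.77% of WT and 6.06% of MG53-TG cells.

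Lcn2 was found mainly in stem-like cells. These held 56.8% of its WT and 75.5% of its MG53-TG epithelial UMIs, at 57.5 and 30.8 CPM (log2 ratio -0.90, interval -1.05 to -0.75). Stem cell markers differed in the same class, Lgr5 at 8.1 and 22.7 CPM (1.49, interval 1.23 to 1.74) and Olfm4 at 1270 and 1913 CPM (0.59), and their part in the Lcn2 difference was not tested. Cluster 2, stem-like and led by Olfm4, was at 51 and 19.3 CPM (-1.40), and in cycling stem-like cluster 4 at 62.9 and 39.4 CPM (-0.68). In a pair of other clusters the ratio was lower: unnamed cluster 5, led by the gasdermin genes Gsdmc4 and Gsdmc2, was at 46.1 and 9.07 CPM (-2.35, interval -2.84 to -1.88), and enterocyte-like cluster 11, with Fabp1 among its leading genes, at 42.1 and 7.98 CPM (-2.40, interval -2.93 to -1.90). Lcn2 was below the WT level beyond counting error in 8 of 9 clusters with at least 30 UMIs and above it in 0. Among these, enterocyte-like cluster 6 had a thinned WT share of 1.04% (0.285 to 2.65), which overlaps that of T cell-like cells (0.00317 to 0.696). Its WT level, 13.3 CPM, was above their 0.831 CPM, and a part of background cannot be told apart there. In ileal cluster 10, where Saa1 peaked, Lcn2 had 0 UMIs in both libraries. In ileal cluster 13, 143 UMIs in WT came from 9 cells of 270, and 2 UMIs in MG53-TG from 2 cells of 99. Paneth-like cells gave 41 UMIs of Lcn2 in WT against 0 in MG53-TG, at least 5.91-fold lower, taking 3 counts in the library as the limit. The exact interval of this log2 ratio ends at -2.20. In that class 5 of the 6 genes tested, Saa1, Lcn2, Dmbt1, Duox2 and Duoxa2, were at least 2-fold lower, beside 6.12% of 8968 genes. The thinned WT share of each of these overlapped that of T cell-like cells. The WT level of Lcn2 in Paneth-like cells, 3.37 CPM (2.42 to 4.58), overlapped the 0.831 CPM (0.101 to 3) of T cell-like cells. The thinned share, 0.402% (0.0102 to 2.22), overlapped theirs too, so background from free RNA cannot be told apart from expression.

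Lcn2 too sat in few cells, 555 in WT and 171 in MG53-TG, and 64 and 18 cells held 50% of its UMIs. In thinned epithelial cells a UMI was seen in 1.85% of WT and 0.499% of MG53-TG cells. The stem-like shares were 5.62% (4.34 to 7.15) and 3.03% (1.74 to 4.87). The share in T cell-like cells was 0.125% and 0. Neutrophils, which make much Lcn2, left little trace: S100a8, S100a9, Ly6g and Ngp had 0 UMIs in the epithelial cells of both libraries, and the 9 markers of neutrophils together had 3 and 5 UMIs. Among markers of macrophages, Cd14 gave 1023 of 1410 UMIs in WT and 717 of 922 in MG53-TG, of which 528 and 294 lay in stem-like cells, while C1qb was at 0 in WT.

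Dmbt1 was most abundant in unnamed cluster 5, cluster 11 and stem-like cells. It was at 4070 and 3524 CPM in unnamed cluster 5 (log2 ratio -0.21, interval -0.23 to -0.18), and at 3663 and 3329 CPM in cluster 11 (-0.14). Stem-like cells were at 3598 and 2813 CPM (-0.35). In these high-level cells the ratio lay nearer 0 than the -0.82 of the epithelial sum. In enterocyte-like cluster 7 it was at 140 and 54 CPM (-1.37), and the thinned share in MG53-TG, 7.43% (4.72 to 11), overlapped that of T cell-like cells. Thinned cells with a UMI made up 96.5% of WT and 94.4% of MG53-TG cells in cluster 5, and 91.8% and 81.8% of stem-like cells. Dmbt1 was below the WT level beyond counting error in 18 of 21 clusters, 7 of them of the goblet-like and tuft-like classes, whose shares of cells with Dmbt1 are no higher than those of T cell-like cells, and above it in 2. Goblet-like cluster 22 stood apart in WT, where 21.2% (13.1 to 31.4) of thinned cells had a UMI. Both of these were enteroendocrine-like, cluster 18 at 381 and 483 CPM (0.34) and cluster 19 at 147 and 231 CPM (0.66). The share of enteroendocrine-like cells with a UMI went the other way, 12.6% (8.97 to 17) and 8.29% (4.71 to 13.3) after thinning and 36.7% and 26% before, and its thinned intervals hold the values of T cell-like cells or overlap them, so no order is read from these CPM.

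Free RNA held several of these genes. WT barcodes with at most 100 UMIs, most of them droplets without a cell, carried 1184 CPM of Dmbt1, 59.1 of Il18, 49.5 of Duox2, 36.3 of Saa1, 26.1 of Duoxa2, 15.7 of Nos2 and 10.4 of Lcn2. For Duox2, Duoxa2 and Nos2 this was above the level of the WT epithelial sum. T cell-like cells, which should lack Dmbt1, were at 89.3 CPM (WT) and 28.4 CPM (MG53-TG), with a UMI in 10.3% and 4.1% of thinned cells. Goblet-like cells had a UMI in 9.79% and 3.3% and tuft-like cells in 6.49% and 2.46%, no higher than the T cell-like cells of the same library. The WT levels of goblet-like cells, 200 CPM, and tuft-like cells, 216 CPM, were above that of T cell-like cells, while those of MG53-TG, 33.3 and 27.1 CPM, lay within its counting interval (19.5 to 39.9). Shares and levels thus differ in WT, and the part of background in the log2 ratios of -2.58 in goblet-like and -2.99 in tuft-like cells, beside -1.65 in T cell-like cells, cannot be told apart. The MG53-TG table starts at 500 UMIs, and its free RNA was not measured here.

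Duox2 and Duoxa2, the oxidase and its partner, were higher in MG53-TG in some clusters and lower in others. Both peaked in ileal cluster 10: Duox2 was at 584 CPM in WT and 977 in MG53-TG (log2 ratio 0.74, interval 0.60 to 0.88) and Duoxa2 at 304 and 623 CPM (1.03, interval 0.85 to 1.22). In cluster 7 they were at 113 and 170 CPM (0.59, interval 0.40 to 0.78) and at 61 and 127 CPM (1.05, interval 0.80 to 1.31). In stem-like cells both were lower in MG53-TG, Duox2 at 23 and 14.5 CPM (-0.67, interval -0.90 to -0.44) and Duoxa2 at 16.4 and 10.3 CPM (-0.67, interval -0.94 to -0.40). Unnamed cluster 5 and enterocyte-like clusters 11 and 6 stood on the same side as the stem-like cells, with ratios of -0.69, -0.89 and -0.64 for Duox2 and -0.96, -1.30 and -0.85 for Duoxa2. In these cells the thinned shares of both genes overlapped those of T cell-like cells in MG53-TG and, in cluster 11, also in WT. T cell-like cells were at 4.98 (2.58 to 8.71) and 6.88 (2.97 to 13.6) CPM of Duox2, and at 1.66 (0.453 to 4.25) and 1.72 (0.208 to 6.22) CPM of Duoxa2. The levels of stem-like cells were above these, though the Duox2 intervals overlapped in MG53-TG (12.7 to 16.6 in stem-like cells). A part of background in these ratios cannot be told apart. Over all clusters with at least 30 UMIs, Duox2 was below the WT level beyond counting error in 7 of 17 and above it in 4, with intervals that span 0 in 6. Duoxa2 was below it beyond counting error in 7 of 16 and above it in 2, with intervals that span 0 in 7. Clusters 7 and 10 alone had both genes above it beyond counting error.

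The shares of cells gave the same order in cluster 10, where a UMI of Duox2 was seen in 46.7% (41.3 to 52.2) of thinned WT and 65.7% (58 to 72.8) of thinned MG53-TG cells, and of Duoxa2 in 26.5% (21.8 to 31.5) and 47.3% (39.6 to 55.1). T cell-like cells had Duox2 in 0.752% and 0.946%. In cluster 13 the ratios of the pair lay on opposite sides of 0 beyond counting error: Duox2 was at 68.2 and 84.7 CPM (0.31, interval 0.04 to 0.58) and Duoxa2 at 55.7 and 37.4 CPM (-0.57, interval -0.96 to -0.21). In clusters 1, 9, 12 and 16 the signs also differed, with Duoxa2 intervals that span 0. In clusters 1, 9 and 12 the Duox2 interval spans 0 as well, as in cluster 1 at 0.15 (-0.16 to 0.46), so no difference in sign is read there. Cluster 16 was at 0.62 (0.16 to 1.09) for Duox2 and -0.64 (-1.39 to 0.10) for Duoxa2. In the same cells of cluster 10 both transcripts tended to be found together. Of cells with a UMI of Duoxa2, 88.2% in WT and 98.4% in MG53-TG also had Duox2, against 51.6% and 66% of cells without one, although cells with Duoxa2 were also deeper, at a median of 4058 against 2976 UMIs in WT.

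**Figure D4:**
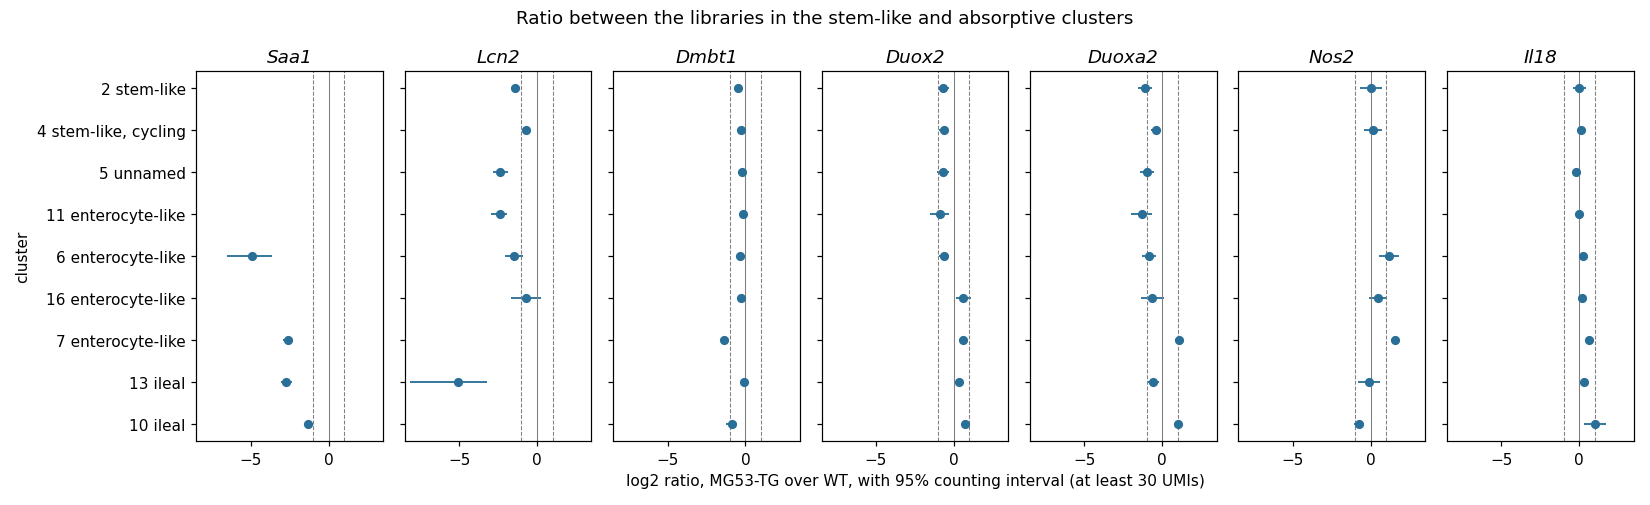
Log2 ratio of MG53-TG over WT in the stem-like clusters, unnamed cluster 5 and the enterocyte-like clusters, ileal ones last, for each gene with at least 30 UMIs in the cluster; bars are 95% counting intervals and dashed lines mark a 2-fold difference. Duox2 and Duoxa2 lie below 0 in clusters 2, 4, 5, 11 and 6 and above 0 in clusters 7 and 10, while Nos2 is above 0 in cluster 7 and below it in cluster 10.

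Nos2 was highest in ileal enterocyte-like cells as a class, at 66.2 CPM in WT and 49.8 in MG53-TG (log2 ratio -0.41, interval -0.69 to -0.13). In WT it was highest in ileal cluster 10, at 233 CPM, and there it was at 140 CPM in MG53-TG (log2 ratio -0.73, interval -1.04 to -0.43). In MG53-TG, cluster 7 was at 155 CPM (143 to 168), not apart from cluster 10 (116 to 167), and the same cluster was at 52.4 CPM in WT (1.56, interval 1.31 to 1.83). Enterocyte-like cells as a class held 29.8% of its WT and 72.1% of its MG53-TG epithelial UMIs, and were at 12.2 and 39.4 CPM (1.69, interval 1.47 to 1.90), 1 of the 129 genes of 10999 (1.17%) at least 2-fold higher there. In enterocyte-like cluster 6 it was at 4.48 and 9.92 CPM (1.15, interval 0.52 to 1.80), above the 0.415 and 0.86 CPM of T cell-like cells. Its thinned shares there, 0.783% (0.162 to 2.27) and 1.69% (0.551 to 3.9), overlapped those of T cell-like cells (0 to 0.461 and 0 to 1.16). A part of background in this ratio cannot be told apart. A UMI was seen in 24.4% (19.9 to 29.4) of WT and 13.6% (8.83 to 19.7) of MG53-TG cells of cluster 10 after thinning, and in 7.8% (5.21 to 11.2) and 16.9% (12.8 to 21.7) of cluster 7. In T cell-like cells 1 UMI was found in each library. Before thinning, the MG53-TG cells of cluster 7 were deeper than those of WT, with medians of 10101 and 5377 UMIs.

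The epithelial ratio of Nos2 depended on how cells were counted. The mean of single-cell CPM, in which shallow cells such as those of cluster 10 weigh as much as deep ones, gave 0.00, and a mitochondrial limit of 50% gave 0.92. In cluster 10 of WT, Nos2 went with Saa1: 60.8% of cells with a UMI of Saa1 had Nos2, against 19.4% of cells without, at median depths of 3495 and 3331 UMIs. In MG53-TG the shares were 37.5% and 23.6%, with overlapping intervals (26.9 to 49 and 15.2 to 33.8).

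Il18 belonged to enterocytes. Enterocyte-like cells held 65.6% of its WT and 73.5% of its MG53-TG epithelial UMIs, at 284 and 339 CPM (log2 ratio 0.26, interval 0.20 to 0.31), and it was highest in cluster 16, led by Leap2 and Slc2a2, at 415 and 472 CPM (0.19, interval 0.08 to 0.29). Cluster 6 was at 370 and 440 CPM (0.25), cluster 11 at 201 in both (0.00, interval -0.12 to 0.12), and stem-like cells at 17 and 18.5 CPM (0.12, interval -0.10 to 0.35). In cluster 7 it was at 127 and 196 CPM (0.63, interval 0.45 to 0.81). In cluster 10, which led for the oxidase genes, it was low, at 22.3 and 45.9 CPM from 32 and 41 UMIs (1.04, interval 0.34 to 1.76), with thinned shares of 2.08% and 2.96% whose intervals overlap those of T cell-like cells, so background cannot be told apart there. Il18 lay above the WT level beyond counting error in 5 of 18 clusters and below it in 1, goblet-like cluster 1, at 39.3 and 30.6 CPM (-0.36). These are transcripts, and the data hold no measure of the cut, secreted cytokine.

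The neutrophil chemokines were nearly absent from these cells. Cxcl1 had 7 UMIs in 7 WT cells and 1 UMI in MG53-TG, too few for a ratio to be read. Cxcl5 had 0 UMIs in 6120 WT and 4606 MG53-TG cells, which allows a share of up to 0.049% and 0.0651% of cells with a UMI when 3 counts are taken as the limit. The 17 macrophage-like cells of WT had 0 UMIs of both as well.

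Of 16 genes of the acute phase and of bacterial restraint, 8 had at least 30 UMIs, 1 was at least 2-fold lower in MG53-TG and 0 were higher, beside 1.04% and 1.43% of all genes tested. The median ratio of these 8 was 0.02, with no pseudocount here and in the lists that follow, beside 0.09 over all genes. The 1 was Saa3, a further serum amyloid A gene, at 0.424 and 0.211 CPM from 45 and 19 UMIs (-1.01, interval -1.86 to -0.20). Pigr, the receptor that carries antibody into the lumen, was at 1799 and 2033 CPM (0.18) and Retnlb, a goblet cell product against bacteria, at 105 and 106 CPM (0.02). Tifa, an adaptor in the sensing of bacterial sugars, was at 52.8 and 40.5 CPM (-0.38). Of 14 oxidase and nitric oxide genes, 10 were tested and none reached 2-fold in either direction (median -0.17, or -0.08 with a pseudocount of 1 CPM). Among them, Gpx2, a gut peroxidase that uses glutathione, was at 803 and 592 CPM (-0.44), and Cyba, a subunit of other oxidases, at 182 and 178 CPM (-0.03).

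Of 15 chemokine genes in the tables, 9 were tested (median 0.44, or 0.30 with a pseudocount of 1 CPM), and 1, Cxcl9, was at least 2-fold higher in MG53-TG, from 24 and 46 UMIs (1.18, interval 0.43 to 1.95). The 3 with the highest CPM were Ccl6, at 1097 and 1525 CPM (0.47), Ccl25, at 377 and 346 CPM (-0.12), and Ccl9, at 151 and 227 CPM (0.59). Of 15 genes around IL-18 and the inflammasome, 11 were tested with 0 past 2-fold (median 0.21). Casp1, the caspase that cuts the IL-18 precursor, was at 94.8 and 95.2 CPM (0.01), Nlrp6 at 119 and 112 CPM (-0.09) and Pycard, the adaptor of inflammasomes, at 1062 and 872 CPM (-0.28). Of 33 receptors and signalling genes, 31 were tested with 0 past 2-fold (median 0.14), among them Ifngr1 at 98.7 and 113 CPM (0.20), Ifngr2 at 62.6 and 66.2 CPM (0.08) and Nfkbia, a feedback target of NF-kappaB, at 81.3 and 81.2 CPM (0.00).

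Over the 9 epithelial types in both libraries, 18 points that share 2 sources of RNA, the profiles of the genes were compared on the log2(CPM + 1) scale. Duox2 and Duoxa2 had a Pearson r of 0.967 with each other, and Nos2 one of 0.835 and 0.847 with them. Lcn2 and Dmbt1 had an r of 0.849, and Saa1 and Lcn2 an r of 0.042. Saa1 had an r of 0.771 to 0.782, and Il18 one of 0.779 to 0.796, with Duox2, Duoxa2 and Nos2. The genes outside the list with the most like profile were Pmp22 (0.952), Clca4a (0.943) and Fgf15 (0.941) for Saa1, and Cps1, 1700007L15Rik and Rgn (0.877 to 0.874) for Lcn2. For Dmbt1 they were Cftr, Mpzl2 and Otc (0.965 to 0.955), and for Duox2 they were Ahnak, Metrnl and Pim1 (0.920 to 0.911). Metrnl, Tcim and Ier5 (0.933 to 0.928) were nearest to Duoxa2, and Syt12, P2ry2 and Slc5a8 (0.945 to 0.923) to Nos2. Ly6g2 (0.974), Bco2 (0.967) and Btnl1 (0.961) were nearest to Il18, and Bco2 is a gene that overlaps Il18.

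Markers of immune cells were present at low levels in the clusters the results turn on. The 11 T cell markers summed to 30.6 CPM in WT and 156 in MG53-TG in cluster 10, with Gzma giving 31 of 44 and 100 of 139 UMIs, and to 40.4 and 6.88 CPM in cluster 7. Neutrophil and fibroblast markers had 0 UMIs in clusters 7, 10 and 13 in both libraries. Their part in the results was not tested.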

How the data were processed

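The deposited values were UMI counts per gene and barcode, made by the authors with Cell Ranger (version 4 for WT and 6.0.1 for MG53-TG, per the file headers) and not normalized; the submitters' notes name mm10 and Seurat. The WT table held every barcode and the MG53-TG table only those from 500 UMIs up, so program version, barcode filter, library and genotype cannot be told apart. Depth was 158455748 and 128227881 UMIs in all. The study gives several animals per group for this experiment, and each group was deposited as 1 library, in which animals cannot be told apart.

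Barcodes were filtered at the inflection of the WT rank curve (1354 UMIs), 200 genes and 25% mitochondrial UMIs, which 33.7% of WT and 46.1% of MG53-TG barcodes passing the other limits exceeded. Scrublet marked under 0.5% of them as doublets, so the highest scores were removed at 0.8% per 1000 cells (438 and 212 cells). Cells were clustered with scanpy 1.11.5 on 2000 variable genes, 30 components, 15 neighbours and Leiden at resolution 1, leaving out the 10 genes and Trim72, and a cluster was called X-like from at least 3 markers. Secretory progenitor-like cells entered the profiles over types and the equal weighting of types, but their levels were not compared between libraries as a class, because 1 of their clusters held a Paneth marker and none of its own among its 10 leading genes. The names are rebuilt and may differ from those of the study.

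UMIs were summed over cells, with exact Poisson intervals for levels, exact conditional binomial intervals for ratios and Clopper-Pearson intervals for shares, at 95%. With 1 library per group these cover counting error only. Thinned shares are the hypergeometric expectation at 1354 UMIs. A call needed 30 UMIs and a 2-fold difference. The genes, lists and markers were chosen with earlier results of these data known. Named beside the 10 genes were, from each list, the 3 genes with the highest CPM and each gene past 2-fold, and for each of the 10 with at least 200 UMIs the 3 genes with the highest Pearson r. A gene that this rule names is not reported here. Promoter windows came from RefSeq and matched 7 of the 10. Alternatives varied the mitochondrial limit, UMI minimum, doublets, scaling, cell weighting, clusters, resolution, call minimum and pseudocount.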

Additional observations from a re-analysis of the deposited data

Results flagged for a closer look

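For Dmbt1, Duox2, Duoxa2, Nos2 and Il18, some clusters of epithelial cells had ratios of MG53-TG over WT whose counting intervals lay on opposite sides of 0. The share of all genes that do so was not computed, so this is not read as a trait of these genes. Chosen as the lowest and highest clusters after the values were seen, these differences were not tested. The Dmbt1 log2 ratio was 4.81 higher in enteroendocrine-like cluster 19 than in goblet-like cluster 22, where 798 WT and 46 MG53-TG UMIs were counted. After thinning, 21.2% of WT and 4.23% of MG53-TG cells of cluster 22 had a UMI of Dmbt1, against 10.3% and 4.1% of T cell-like cells. In cluster 19 these shares were 12.5% and 7.58%, so the share was lower in MG53-TG where the CPM was higher. Nos2 was 2.29 higher in enterocyte-like cluster 7 than in ileal cluster 10. Duoxa2 was 2.43 higher in cluster 7, and Duox2 1.87 higher in cluster 10, than in Paneth-like cluster 14. Il18 was 1.40 higher in cluster 10 than in goblet-like cluster 1. Shares of thinned cells with Duox2 and Duoxa2 in cluster 14, and with Il18 in cluster 10, overlapped those of T cell-like cells, so that background cannot be told apart from expression on that side of each difference.

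Barcodes over the mitochondrial limit, 3755 in WT and 4402 in MG53-TG, entered no comparison of the report at its limit of 25%, and part of them entered the alternative limit of 50%. Among these barcodes the log2 ratio was 0.96 for Nos2, from 417 and 1109 UMIs, 0.32 for Duoxa2, 0.16 for Il18 and 0.05 for Duox2 (interval -0.05 to 0.15). It was -1.66 for Saa1, -1.54 for Lcn2 and -1.06 for Dmbt1. The share of all genes that differ beyond counting error in these barcodes was not computed.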

How the results depend on the processing

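Saa1 and Lcn2 were at least 2-fold lower under all 9 alternative settings of the ratio, from -2.02 to -1.33 and from -2.07 to -1.39. Rescaling by the median ratio of 14655 genes, which shifts every ratio by 0.09, turned Duox2 to -0.02 and the median of the 7 genes to -0.05. Weighting each type equally moved that median to 0.16. With no UMI minimum, 4 genes had ratios past 2-fold lower, among them Saa2 and Cxcl1. Cxcl1 had too few UMIs for a ratio to be read. What share of all genes passes 2-fold without a minimum was not computed, so nothing is read from this count of 4. Dmbt1 ranged from -0.98 to -0.34, Duox2 from -0.02 to 0.49, Duoxa2 from -0.05 to 0.44, Nos2 from 0.00 to 0.92 and Il18 from 0.15 to 0.27. All 14 shares of cells with a UMI were higher unthinned. No paired analysis was possible because each group is 1 library and no test was made. Depth limits Saa2, Cxcl1 and Cxcl5, and the few cells that hold Saa1 and Lcn2 limit those ratios beyond their counting intervals.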
